A study of Bos taurus with 4 samples.

Results

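The genes described here encode the enzymes that attach ubiquitin to proteins and take it off again. They were chosen by symbol, as rows of the deposited expression table whose bovine gene symbol starts with UBE2, UCHL or OTU, or with USP, UBA or CUL followed by a digit, leaving out USP18 and USP9Y. This gave 82 genes, each with 1 row, among 14517 transcripts. The classes described were 6 E1 genes, 32 E2 genes, 3 cullins, 29 ubiquitin-specific proteases (USP), 3 ubiquitin C-terminal hydrolases (UCH) and 8 ovarian tumour (OTU) proteases, and 1 further gene, not reported here, is of another kind and enters only the counts and medians over the whole set. Another 30 genes whose symbols fit the same rule were not analysed here. Not every symbol stands for an active enzyme of the pathway. USP6NL encodes a GTPase-activating protein for Rab proteins, USP39 is a splicing factor without protease activity, and UBE2V1 and UBE2V2 are E2 variants that lack the catalytic cysteine.

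Polyadenylated RNA came from Bos taurus embryos at the 8/16-cell stage, 3 days after insemination, when the bovine embryo's own genome is being switched on. Each library came from embryos injected as zygotes with siRNAs, short RNAs that direct the destruction of a matching messenger RNA. The control group (NC, n = 2 libraries) received negative control siRNAs, and the knockdown group (KDM5_KD, n = 2 libraries) received siRNAs against KDM5A, KDM5B and KDM5C, which encode demethylases of histone H3 lysine 4. The treatment entry of KDM5_KD replicate 2 names KDM6 siRNAs instead, while its title names KDM5, and it was grouped by its title. The number of embryos in a library is not given in the sources used here, and the labels do not say whether replicates came from separate batches of zygotes, so the p-values measure the spread between these libraries only.

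Ubiquitin is a small protein that marks other proteins for destruction by the proteasome or changes where and how they act. An E1 enzyme activates it, an E2 enzyme carries it, and an E3 ligase, often built on a cullin scaffold, places it on the target, while deubiquitinases of the USP, UCH and OTU families remove it. Related enzymes handle the ubiquitin-like proteins SUMO, NEDD8 and ISG15. In early embryos the system clears proteins inherited from the oocyte, drives the cell cycle through the anaphase-promoting complex (APC/C), and modifies histones.

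Of the siRNA targets, KDM5A passed the test. It had 28.4 and 27.1 FPKM in NC replicates 1 and 2 and 10.47 and 10.1 FPKM in KDM5_KD replicates 1 and 2 (FPKM, fragments scaled to transcript length and library size). It fell by 1.35 on the log2(FPKM + 1) scale (SE 0.142, limma adjusted p = 0.0333), and this call was lost when NC replicate 2, KDM5_KD replicate 1 or KDM5_KD replicate 2 was left out (limma adjusted p of 0.0625, 0.179 and 0.232), with no filter on low values (0.0918) and with eBayes without a trend (0.0605). KDM5C had 28.1 and 40.6 FPKM in NC against 15.1 and 17.8 FPKM in KDM5_KD (log2 fold change -0.999, limma adjusted p = 0.123), and KDM5B was not analysed here. KDM6A, looked at because of the treatment entry of KDM5_KD replicate 2, had 7.63 and 11.3 FPKM in NC. In KDM5_KD replicates 1 and 2 it had 7.90 and 9.29 FPKM, and the groups overlapped (log2 fold change -0.11, limma adjusted p = 0.848). Values sum to between 283347 and 322267 FPKM per library. Read counts are unknown, and the commonest ratios among low values put NC replicate 2 at 1.46 times the depth of NC replicate 1, and the knockdown libraries at 1.17 and 1.145 times that depth. Of the 13 oocyte and early embryo marker rows, all 13 reached 1 FPKM in every library. Their summed level was 471 to 604 FPKM in NC and 716 to 834 FPKM in KDM5_KD. Markers of cumulus and granulosa cells, which surround the oocyte, summed to 19.2 to 33.2 FPKM in NC and 52.9 to 54.8 FPKM in KDM5_KD over 16 genes. Of the 10 tested, 8 lay higher in both knockdown libraries than in both controls, and AMH and TNFAIP6 overlapped. INHA and VCAN, among the 8, reached the mean of 1 FPKM needed for testing only through their knockdown values. Of the 13 oocyte and early embryo rows, 7 lay higher and 0 lower. Over all transcripts tested 35.1% lay higher and 15.6% lower, and 48.0% lay higher among those up to 3.71 FPKM. The receptor genes FSHR and LHCGR were listed at 0 in both NC libraries and reached at most 0.0443 and 0.0434 FPKM in KDM5_KD. The 6 sperm markers summed to between 1.22 and 1.70 FPKM.

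No gene of the ubiquitin conjugation and deubiquitination set passed the test between groups. The test was limma on log2(FPKM + 1) across the 8970 transcripts with a mean of at least 1 FPKM, with Benjamini-Hochberg adjustment, and 77 of the 82 genes entered it. At an adjusted p under 0.05, 0 of the 77 were higher and 0 were lower, where 0.190% of all transcripts tested were called higher and 0.0892% lower. The lowest adjusted p among the 77 was 0.0970, for UCHL1. Without adjustment 10 of the 77 had p under 0.05 in limma, or 13.0%, against 17.5% of all transcripts. In 5 simulated tables of this size the test recovered 93.2% of changes of 2 on the log2 scale and 31.6% of changes of 1, so a doubling was more often missed than called. Leaving out KDM5_KD replicate 2 also left 0 called. Without NC replicate 1, UCHL1 alone was called.

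The set as a whole lay close to the background of the table. Both knockdown libraries lay above both control libraries for 26 of the 77 genes, or 33.8%, against 35.1% of all transcripts. They lay below for 11, or 14.3%, against 15.6%. The median log2 fold change was 0.07, and that of all transcripts was 0.09. On the log2(FPKM + 1) scale UCHL1 and UBE2L6 were at least 2-fold higher, where 4.52% of all transcripts were, and 0 were at least 2-fold lower, where 0.301% were. UBE2L6 averaged 0.894 FPKM in NC and passed the filter of 1 FPKM only through its knockdown mean of 3.18 FPKM. Its place in every count and median of tested genes rests on the group where it is high. Under median-ratio scaling the median over all transcripts shifted by -0.10, and the median of the 77 genes became -0.04. Under quantile normalization the shift was -0.14 and the median of the 77 genes became -0.02. Under median-ratio scaling 20 genes then lay above the controls and 19 below, or 25.97% and 24.7%, beside 25.9% and 25.4% of all transcripts. Under quantile normalization 16 lay above and 19 below, or 20.8% and 24.7%, beside 20.7% and 28.3%.

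**Figure D1:**
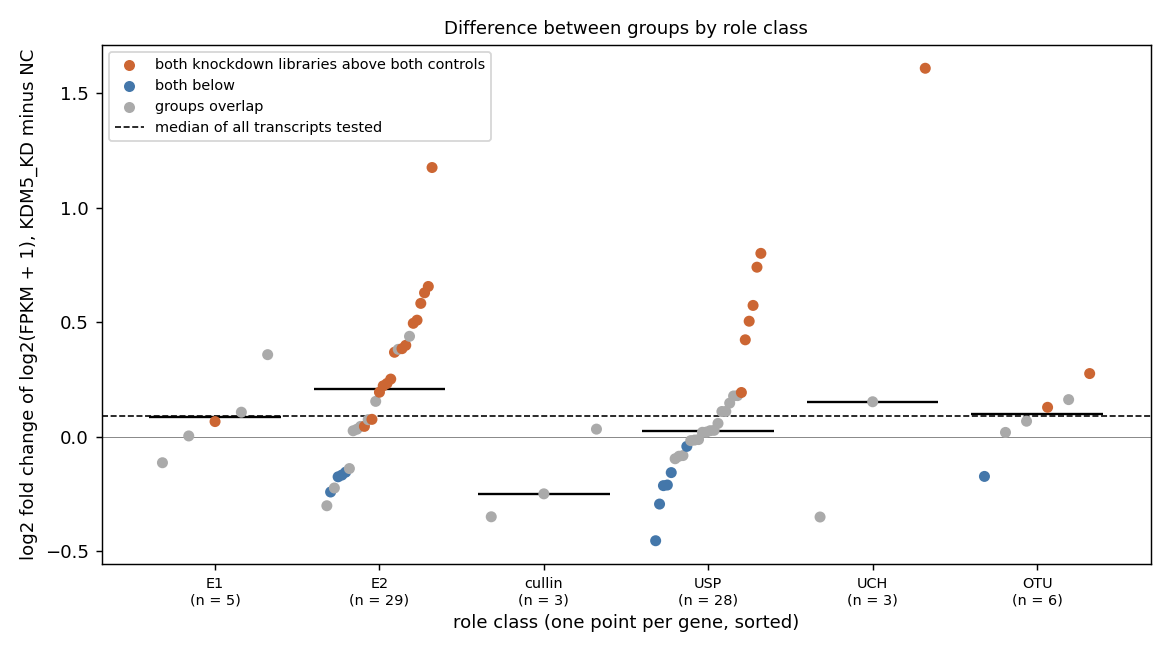
Log2 fold change on the log2(FPKM + 1) scale, KDM5_KD minus NC, for 74 of the 77 genes tested, 1 point per gene, grouped by role on the horizontal axis with the number of points under each class. Black lines are medians of all tested genes of a class and the dashed line is the median of all transcripts, 0.09; UCHL1 at 1.61 and UBE2L6 at 1.17 stand highest, the E2 median is 0.21 and the cullin median is -0.25.

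Among the E1 genes described here UBA1, which activates ubiquitin itself, was the most abundant and showed the smallest difference. Its levels were 59.8 and 76.0 FPKM in NC and 59.97 and 76.0 FPKM in KDM5_KD. The values differed between replicates and not between groups, with a log2 fold change of 0.00 (95% confidence interval -0.43 to 0.44). UBA6, the other E1 for ubiquitin, had 4.84 and 5.01 FPKM in NC and 5.18 and 5.23 FPKM in KDM5_KD. It was the only E1 gene whose groups did not overlap (log2 fold change 0.07, limma adjusted p = 0.890). UBA2, a subunit of the SUMO E1, had 44.0 and 58.0 FPKM against 43.05 and 50.4 FPKM. UBA3, a subunit of the NEDD8 E1, had 16.2 and 20.8 FPKM against 19.98 and 19.7 FPKM. Both overlapped between groups. The log2 fold change was -0.11 for UBA2 (limma adjusted p = 0.784) and 0.11 for UBA3 (limma adjusted p = 0.795).

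Many E2 genes had higher values in the knockdown. Of 30 tested, 16 lay above both controls in both knockdown libraries, or 53.3%, and 4 lay below, or 13.3%, beside the 35.1% and 15.6% of all transcripts. Their median log2 fold change was 0.21, which is 0.12 above that of all transcripts. With median-ratio scaling 14 lay above, or 46.7% against 25.9% of all transcripts, and with quantile normalization 9 did, or 30.0% against 20.7%. The offset from all transcripts was 0.11 under both scalings. Without NC replicate 2, however, it was 0.01, with an E2 median of 0.11 against 0.10, and without NC replicate 1 the E2 median was 0.26 against 0.09. In 20 of the 30 E2 genes the first control library was the higher of the pair. The 16 above the controls include UBE2L6, which passed the filter of 1 FPKM only through its knockdown values. No test of the class was made, and no E2 gene passed on its own.

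UBE2B had the lowest unadjusted p among them, 0.00291 in limma. Its product is an orthologue of yeast RAD6, which attaches ubiquitin to histone H2B, a mark that promotes methylation of H3 lysine 4. UBE2B had 94.2 and 96.6 FPKM in NC and 162 and 135 FPKM in KDM5_KD. Both knockdown values were clear of the controls, which lay close together. The ratio of means was 1.56 and the log2 fold change 0.63 (SE 0.130, limma adjusted p = 0.123), and it stayed between 0.50 and 0.76 under every alternative tried. UBE2A, the other RAD6 orthologue, was far less abundant, with 6.96 and 6.33 FPKM in NC and 7.37 and 8.87 FPKM in KDM5_KD (log2 fold change 0.25, limma adjusted p = 0.541). The E3 ligase pair that works with them on H2B was looked at for this reason, after its values were seen. RNF20 had 25.9 and 29.5 FPKM against 30.6 and 30.6 FPKM, and RNF40 had 38.2 and 37.0 FPKM against 31.3 and 32.9 FPKM. RNF20 thus lay above the controls and RNF40 below them, with limma adjusted p of 0.643 and 0.415.

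The UBE2E and UBE2Q families had higher values in the knockdown for most of their genes. UBE2E1 had 94.2 and 90.1 FPKM in NC and 117 and 127 FPKM in KDM5_KD, which did not overlap (log2 fold change 0.40, SE 0.114, limma adjusted p = 0.178). UBE2E3 had 11.2 and 6.71 FPKM against 12.8 and 12.6 FPKM (log2 fold change 0.49, limma adjusted p = 0.367). UBE2E2 overlapped, because the controls themselves stood at 6.97 and 0.947 FPKM around knockdown values of 3.80 and 4.49 FPKM. UBE2Q1 had 19.2 and 15.3 FPKM in NC and 21.5 and 31.7 FPKM in KDM5_KD, and UBE2Q2 had 28.9 and 28.5 FPKM against 33.3 and 51.0 FPKM. Both were highest in KDM5_KD replicate 2. Their log2 fold changes were 0.58 (limma adjusted p = 0.266) and 0.51 (limma adjusted p = 0.293). Without that library the differences were 0.31 and 0.21.

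**Figure D2:**
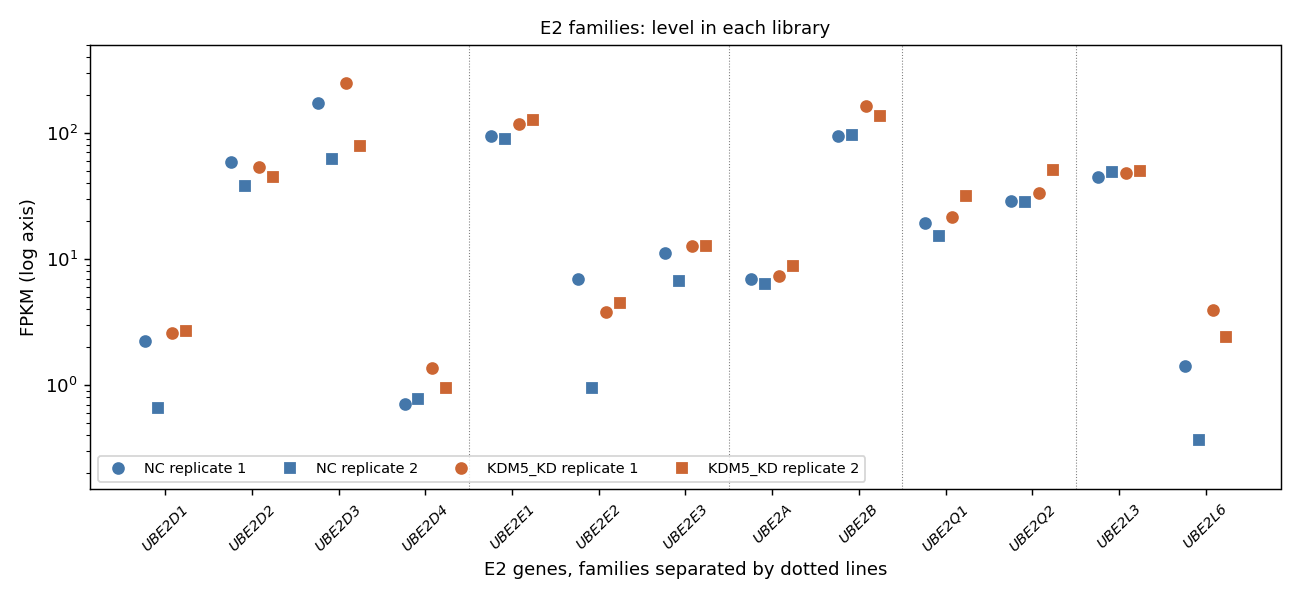
FPKM on a log axis in each of the 4 libraries for the genes of 5 E2 families (UBE2D, UBE2E, RAD6 orthologues, UBE2Q, UBE2L); circles are replicate 1 and squares replicate 2, blue NC and orange KDM5_KD. UBE2B lies at 94.2 and 96.6 FPKM in NC below 162 and 135 FPKM in the knockdown, while UBE2D3 separates by replicate number, from 62.0 to 250 FPKM.

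The UBE2D family holds broadly acting E2s that serve many E3 ligases, and its most abundant gene differed by replicate number rather than by group. UBE2D3 had 172 and 62.0 FPKM in NC replicates 1 and 2 and 250 and 78.7 FPKM in KDM5_KD replicates 1 and 2. Replicate 1 was thus 2.78 times replicate 2 in NC and 3.18 times in KDM5_KD. The log2 fold change was 0.44 with a 95% confidence interval from -1.13 to 2.01, and it reversed to -0.29 without NC replicate 2 and to -0.39 without KDM5_KD replicate 1. Among the tested genes UBE2L6 and USP45 were the others over 1.5-fold apart the same way between replicates of both groups. UBE2D2 had 58.9 and 37.6 FPKM against 53.2 and 44.3 FPKM and overlapped. UBE2D1 was low, at 2.23 and 0.661 FPKM in NC and 2.62 and 2.68 FPKM in KDM5_KD (log2 fold change 0.66, limma adjusted p = 0.381). Genes of this family are similar in sequence, so reads may be divided between their rows.

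UBE2N, which builds K63-linked chains together with a UBE2V partner, had 23.0 and 25.5 FPKM in NC and 31.3 and 31.7 FPKM in KDM5_KD. The groups did not overlap (log2 fold change 0.37, SE 0.133, limma adjusted p = 0.245). Its partners went opposite ways. UBE2V1 had 51.5 and 45.7 FPKM against 55.0 and 59.3 FPKM, and UBE2V2 had 36.9 and 40.2 FPKM against 32.02 and 36.1 FPKM. The log2 fold change was 0.23 for the first (limma adjusted p = 0.407) and -0.18 for the second (limma adjusted p = 0.552). Of the E2s of endoplasmic-reticulum-associated degradation, UBE2J1 had 4.56 and 5.62 FPKM against 7.12 and 6.71 FPKM. UBE2J2 had 96.5 and 95.03 FPKM against 81.9 and 79.8 FPKM, so that UBE2J1 lay above the controls and UBE2J2 below (log2 fold change of UBE2J2 -0.24, SE 0.109, limma adjusted p = 0.323). UBE2G1 and UBE2G2, which act in the same process, had 24.7 and 20.9 FPKM against 23.4 and 27.6 FPKM and 17.2 and 14.8 FPKM against 17.5 and 11.7 FPKM, and both overlapped.

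The most abundant E2 genes, UBE2C and UBE2S, serve cell division. UBE2C, the E2 that starts ubiquitin chains for the APC/C, had 524 and 353 FPKM in NC and 376 and 323 FPKM in KDM5_KD. NC replicate 1 stood apart and the groups overlapped (log2 fold change -0.30, limma adjusted p = 0.496). Without that library the difference was -0.02. UBE2S, which lengthens those chains, had 267 and 220 FPKM against 273 and 225 FPKM, a log2 fold change of 0.03 that turned to -0.08 with median-ratio scaling. UBE2K, which makes K48-linked chains, had 154 and 160 FPKM against 150 and 130 FPKM. It lay below the controls with a log2 fold change of -0.17 (limma adjusted p = 0.528).

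UBE2Z, an E2 charged by UBA6, had 53.2 and 56.2 FPKM in NC and 55.4 and 55.9 FPKM in KDM5_KD, the smallest difference among the E2 genes tested. Its log2 fold change was 0.03 (95% confidence interval -0.26 to 0.31), and the sign turned under both scalings. UBE2H, which works with the CTLH ligase complex, had 24.2 and 23.3 FPKM against 25.9 and 29.9 FPKM and lay above the controls (log2 fold change 0.22, limma adjusted p = 0.475). UBE2W, which can place ubiquitin on the N terminus of a protein, had 8.68 and 8.44 FPKM against 10.2 and 9.63 FPKM, also above. UBE2R2, an E2 of SCF ligases, lay above by a narrow margin, with 65.6 and 68.2 FPKM against 69.5 and 68.5 FPKM. UBE2T, the E2 of the Fanconi anaemia pathway, had 4.50 and 6.48 FPKM against 3.83 and 5.23 FPKM and overlapped.

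Enzymes of NEDD8 and ISG15 were compared by modifier. For NEDD8, the modifier that activates cullins, UBE2M had 28.4 and 27.3 FPKM against 29.0 and 29.7 FPKM, and UBE2F had 17.4 and 19.3 FPKM against 15.9 and 16.8 FPKM. UBE2M lay above the controls (log2 fold change 0.08, limma adjusted p = 0.808) and UBE2F below them (log2 fold change -0.16, limma adjusted p = 0.637). For ISG15, an interferon-induced modifier, the E2 gene UBE2L6 had 1.42 and 0.369 FPKM in NC and 3.95 and 2.41 FPKM in KDM5_KD (log2 fold change 1.17, SE 0.344, limma adjusted p = 0.184). Its E1 gene UBA7 had 9.96 and 5.26 FPKM against 10.8 and 8.58 FPKM and overlapped (log2 fold change 0.36, limma adjusted p = 0.587). ISG15 itself had 44.1 and 11.9 FPKM in NC and 89.7 and 84.3 FPKM in KDM5_KD. All 3 genes of the ISG15 group were higher in NC replicate 1 than in NC replicate 2, and against NC replicate 1 alone UBA7 was at -0.05. UBE2L3, the close relative of UBE2L6 that serves ubiquitin, had 44.4 and 48.8 FPKM against 47.9 and 50.2 FPKM and overlapped.

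**Figure D3:**
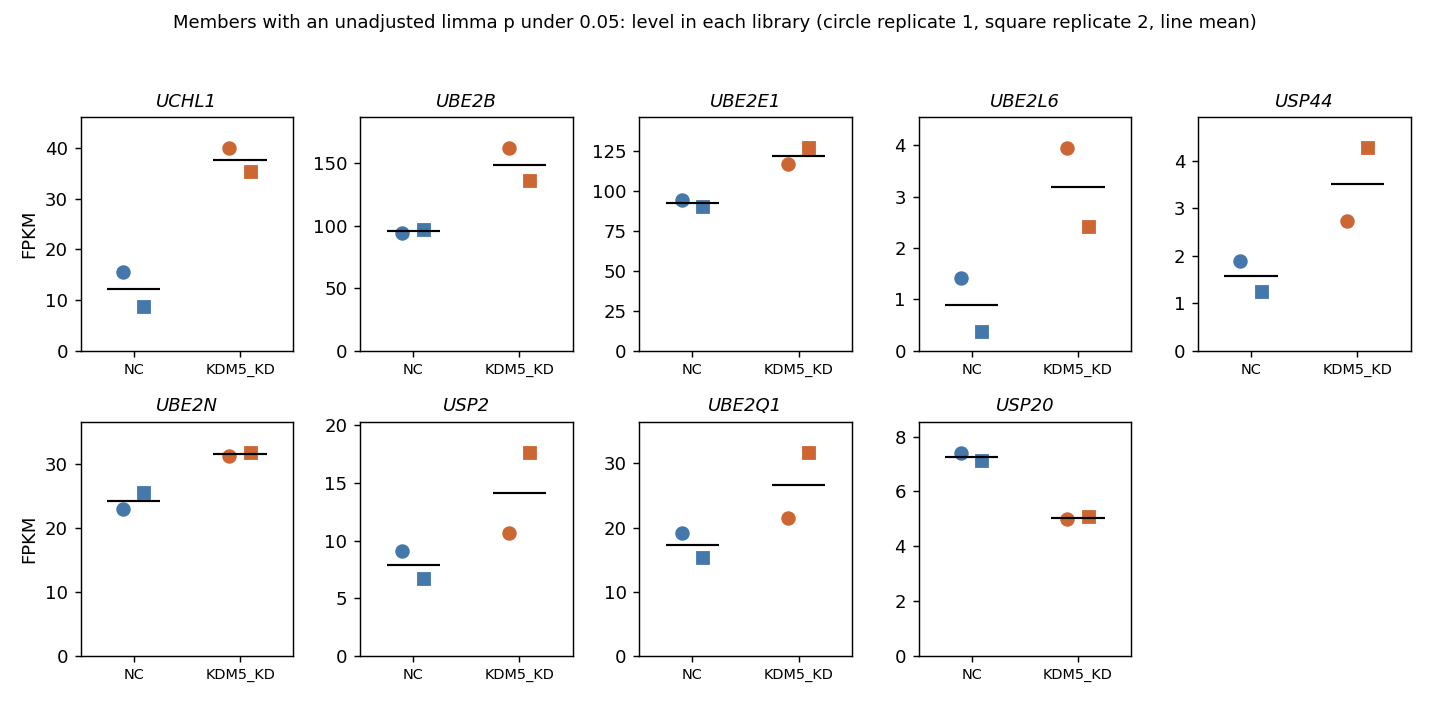
FPKM in each library for 9 of the 10 genes with an unadjusted limma p under 0.05, on axes that start at 0; circles are replicate 1, squares replicate 2 and lines group means. In 8 of them both knockdown values lie above both controls, and in USP20 both lie below; none passed after adjustment.

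Cullins are the scaffolds of the largest group of E3 ligases, and the 3 that were measured overlapped between groups. CUL1, the scaffold of SCF ligases, had 40.6 and 49.8 FPKM in NC and 33.4 and 42.5 FPKM in KDM5_KD. CUL2, the scaffold of VHL ligases, had 11.015 and 19.3 FPKM against 9.55 and 13.2 FPKM. In both genes replicate 2 was the higher library in each group, and the log2 fold changes were -0.25 and -0.35 (limma adjusted p of 0.512 and 0.587). The difference in CUL2 turned to 0.03 without NC replicate 2. CUL3, the scaffold of BTB-domain ligases, had 35.5 and 35.47 FPKM against 38.1 and 34.6 FPKM. Its log2 fold change of 0.03 (95% confidence interval -0.28 to 0.34) turned negative under both scalings.

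The USP genes were divided evenly between directions. Of 28 tested, 6 lay above the controls and 6 below, or 21.4% each way, beside 35.1% and 15.6% of all transcripts, and the median log2 fold change was 0.02. With median-ratio scaling 4 lay above and 8 below, or 14.3% and 28.6% beside 25.9% and 25.4% of all transcripts. With quantile normalization 6 lay above and 10 below, or 21.4% and 35.7% beside 20.7% and 28.3%. The most abundant were USP1, USP10 and USP22. USP1, a regulator of DNA crosslink repair, had 131 and 124 FPKM in NC and 146 and 130 FPKM in KDM5_KD, which overlapped. USP10, a p53 deubiquitinase, had 68.5 and 85.8 FPKM against 66.5 and 77.1 FPKM and overlapped as well. Their log2 fold changes were 0.11 and -0.10, and the first turned to -0.0018 with median-ratio scaling.

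Higher values were largest for USP44 and USP2. USP44, a mitotic checkpoint regulator that also removes ubiquitin from histone H2B, was low in all libraries, at 1.89 and 1.24 FPKM in NC and 2.73 and 4.27 FPKM in KDM5_KD (log2 fold change 0.80, SE 0.263, limma adjusted p = 0.212). USP2 had 9.13 and 6.67 FPKM against 10.6 and 17.6 FPKM (log2 fold change 0.74, limma adjusted p = 0.258). Without KDM5_KD replicate 2 the USP2 difference was 0.40. USP46, which works with the cofactor UAF1, had 13.8 and 12.0 FPKM against 15.7 and 19.7 FPKM, while USP1 and USP12, which share that cofactor, overlapped between groups. USP6NL had 39.8 and 33.4 FPKM against 41.5 and 65.4 FPKM, and USP13 had 2.26 and 2.06 FPKM against 2.88 and 4.68 FPKM. In all 5 of these genes KDM5_KD replicate 2 was the highest library. The summed level of the oocyte markers was also highest in that library, at 834 FPKM, and its part in these differences was not tested.

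Lower values differed by less. USP20, a deubiquitinase with a known role in VHL signalling, had 7.42 and 7.12 FPKM in NC and 5.0005 and 5.06 FPKM in KDM5_KD. Its knockdown mean was 69.2% of the control mean, the lowest share among the 77 genes (log2 fold change -0.45, SE 0.178, limma adjusted p = 0.273). USP39 had 26.4 and 28.8 FPKM against 23.2 and 21.4 FPKM (log2 fold change -0.29, limma adjusted p = 0.337). USP42 had 19.0 and 20.5 FPKM against 16.3 and 17.5 FPKM. USP5, which disassembles free ubiquitin chains, had 32.5 and 31.0 FPKM against 28.3 and 26.3 FPKM. The last 2 had log2 fold changes of -0.21 each and limma adjusted p of 0.494 and 0.454. These 4 genes stayed lower under every alternative tried. Only the pseudocount and both scalings could have changed the sign, as these genes were chosen with groups that did not overlap.

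Other deubiquitinases known to act on histones H2A and H2B differed by little. USP22, the deubiquitinase of the SAGA complex, had 62.0 and 59.3 FPKM in NC and 58.5 and 59.2 FPKM in KDM5_KD, which lay just below the controls (log2 fold change -0.04, 95% confidence interval -0.32 to 0.24). USP27X, a USP22 relative, had 6.03 and 5.91 FPKM against 5.403 and 5.10 FPKM and also lay below (log2 fold change -0.16, limma adjusted p = 0.707). USP16 and USP21, which act on H2A, overlapped, with log2 fold changes of -0.01 and -0.02. USP16 had 22.3 and 24.6 FPKM against 24.1 and 22.4 FPKM, the smallest difference among the USP genes tested.

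Of the other USP genes only USP37, which acts in the cell cycle, did not overlap between groups, with 14.7 and 15.05 FPKM in NC and 18.7 and 15.7 FPKM in KDM5_KD (log2 fold change 0.19, limma adjusted p = 0.579). USP8, which acts on endosomes, had 27.7 and 29.5 FPKM against 29.6 and 28.7 FPKM. USP14, which is bound to the proteasome, had 8.45 and 6.74 FPKM against 9.64 and 7.80 FPKM. USP30, a mitochondrial deubiquitinase, had 10.45 and 10.2 FPKM against 11.2 and 8.36 FPKM. All 3 overlapped, as did USP4, USP11, USP12, USP15, USP28, USP33, USP38, USP45 and USP47.

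UCHL1 had the largest difference of the set. It encodes a ubiquitin hydrolase that is abundant in neurons and germ cells, including the oocyte. UCHL1 had 15.5 and 8.70 FPKM in NC and 40.05 and 35.3 FPKM in KDM5_KD. Both knockdown values were more than 2-fold above the higher control, and the controls differed from each other. The ratio of means was 3.11 and the log2 fold change 1.61 (SE 0.263, 95% confidence interval 0.96 to 2.25, limma adjusted p = 0.0970). Over the 9 alternatives that kept all libraries the fold change lay between 1.502 and 1.68 and the adjusted p between 0.0611 and 0.327. Without NC replicate 1 it was 1.99 with a limma adjusted p of 0.00563, in a fit that took the spread of the lone control from the knockdown pair and called 340 transcripts in all. Summed levels of oocyte markers were also higher in the knockdown, 471 to 604 against 716 to 834 FPKM. Those of cumulus and granulosa markers were 19.2 to 33.2 against 52.9 to 54.8 FPKM. Not every marker lay above both controls, with 7 of 13 oocyte rows and 8 of 10 tested cumulus and granulosa rows doing so. These 8 include INHA and VCAN, which passed the filter of 1 FPKM only through their knockdown values. The share over all transcripts was 35.1%, and it was 48.0% among those up to 3.71 FPKM. The part of these markers in the UCHL1 difference was not tested. In bulk embryos, more RNA per cell and more cells with the RNA cannot be told apart.

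The other 2 genes of the family did not follow UCHL1. UCHL3, which also acts on NEDD8, had 25.6 and 38.4 FPKM in NC and 26.1 and 22.8 FPKM in KDM5_KD and overlapped (log2 fold change -0.35, limma adjusted p = 0.450). Its difference was -0.07 without NC replicate 2. UCHL5, a deubiquitinase of the proteasome, had 3.62 and 3.997 FPKM against 3.20 and 5.79 FPKM and overlapped as well (log2 fold change 0.15, limma adjusted p = 0.824).

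OTU proteases often prefer particular chain types. OTUB1, which also blocks E2 enzymes directly, was the most abundant, at 84.2 and 73.3 FPKM in NC and 67.4 and 71.7 FPKM in KDM5_KD. It lay below the controls by a small margin (log2 fold change -0.17, limma adjusted p = 0.528). OTUD5 had 52.0 and 61.7 FPKM against 56.7 and 62.2 FPKM and overlapped, and OTUD4 had 9.88 and 8.65 FPKM against 9.95 and 10.4 FPKM. OTULIN, which cleaves linear chains, was low, at 1.69 and 1.65 FPKM against 2.17 and 2.29 FPKM (log2 fold change 0.28, limma adjusted p = 0.520). OTULINL, a relative without protease activity, had 1.98 and 1.90 FPKM against 1.63 and 2.37 FPKM, the smallest difference among the OTU genes tested. OTUD7B, which prefers K11-linked chains, had 3.75 and 2.96 FPKM against 2.71 and 5.34 FPKM and overlapped. The signs of OTUD4, OTUD5 and OTULINL each turned under at least 1 scaling.

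The 5 genes below the filter of 1 FPKM were UBE2D4, UBE2U, OTUB2, OTUD7A and USP50. Their means over the 4 libraries were 0.953, 0.0454, 0.884, 0.0497 and 0.447 FPKM. UBE2D4 had 0.710 and 0.781 FPKM in NC and 1.36 and 0.958 FPKM in KDM5_KD, and UBE2U was listed at 0 in KDM5_KD replicate 1.

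Among other genes of the pathway, over 8 lists of ubiquitin precursors, other deubiquitinases, neddylation and COP9 signalosome genes, cullin adaptors, APC/C subunits, E3 ligases and SUMO genes, 140 transcripts were tested and 0 passed in either direction. Of all transcripts tested, 0.190% were called higher and 0.0892% lower. Without adjustment 10 of the 140 had p under 0.05 in limma, 8 of them higher and 2 lower. This was 7.14% of those tested, against 17.5% of all transcripts. In all 36 lay above the controls, or 25.7% against 35.1% of all transcripts. Another 22 lay below, or 15.7% against 15.6%, and the median log2 fold change was 0.06. The 36 include RNF144B, at 0.811 and 0.588 FPKM in NC, which passed the filter of 1 FPKM only through its knockdown values. The list of other deubiquitinases includes TAF1D, matched through the synonym JOSD3. TAF1D is not a deubiquitinase, and its groups overlapped. RNF19A, an E3 ligase, had 17.4 and 16.9 FPKM in NC and 26.7 and 28.0 FPKM in KDM5_KD, the lowest adjusted p of these lists (log2 fold change 0.64, SE 0.134, limma adjusted p = 0.123). ATXN3, a deubiquitinase with a mean of 3.95 FPKM, had 2.17 and 1.48 FPKM against 4.04 and 8.09 FPKM. Its log2 fold change of 1.27 was the largest of these lists (limma adjusted p = 0.157). It alone was at least 2-fold higher, where 4.52% of all transcripts were. SPOP, a substrate adaptor of CUL3, had 6.19 and 4.99 FPKM against 7.55 and 14.5 FPKM (log2 fold change 0.81, limma adjusted p = 0.264). CCNF, an F-box adaptor of CUL1, had 16.3 and 16.0 FPKM against 11.6 and 12.2 FPKM (log2 fold change -0.41, limma adjusted p = 0.245).

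Of the 15 APC/C transcripts tested, 3 lay above the controls, or 20% against 35.1% of all transcripts, and 2 below, or 13.3% against 15.6%. The ones named for their large differences were ANAPC15 and ANAPC11, both above. ANAPC15 had 26.3 and 24.4 FPKM in NC and 31.3 and 36.4 FPKM in KDM5_KD, and ANAPC11 had 32.7 and 22.0 FPKM against 33.4 and 43.7 FPKM, with limma adjusted p of 0.240 and 0.333. SUMO3, a SUMO modifier, had 5.78 and 6.94 FPKM against 8.22 and 8.19 FPKM and lay above the controls (log2 fold change 0.33, limma adjusted p = 0.417). UBB, the polyubiquitin gene, had 1439 and 1365 FPKM against 1327 and 1327 FPKM (log2 fold change -0.08, limma adjusted p = 0.772). RPS27A, another ubiquitin precursor, had 443 and 451 FPKM against 412 and 353.5 FPKM (log2 fold change -0.23, limma adjusted p = 0.400). Ubiquitin precursors hold near-identical ubiquitin sequence, so reads may be divided between their rows. JOSD1 and STAMBP among the other deubiquitinases, ARIH1 and COPS7A among the neddylation and COP9 genes, RNF19B, and RNF34 and UHRF1 among the RING ligases completed the named genes of these lists. Their limma adjusted p lay between 0.209 and 0.691. The only calls in these lists under any alternative were UBB after quantile normalization (log2 fold change -0.76) and UHRF1 and ANAPC13 without NC replicate 1 (0.99 and 1.53). The ANAPC13 value came from a row with 2.98 and 1.4e-05 FPKM in NC and 2.26 and 1.58 FPKM in KDM5_KD. Another ANAPC13 row had 0.466 and 3.56 FPKM against 2.61 and 4.45 FPKM and was not called. Both rows overlapped between groups with all libraries, and reads may be divided between them.

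**Figure D4:**
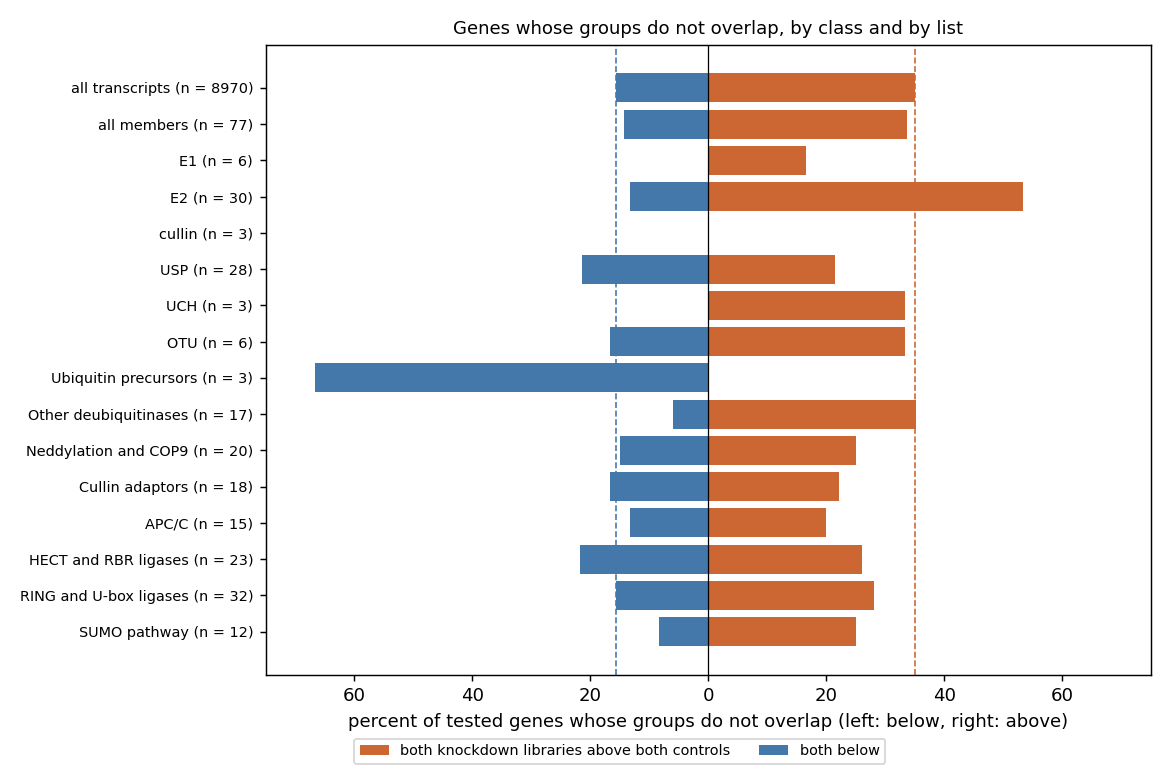
Percent of tested genes for which both knockdown libraries lay above (right) or below (left) both controls, for all transcripts, for the gene set and its classes, and for the 8 other pathway lists, with the number tested in brackets; dashed lines mark the shares of all transcripts, 35.1% and 15.6%. The E2 bar reaches 53.3% on the right, the USP bars reach 21.4% on each side, and the ubiquitin precursor bar rests on 3 genes.

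Differences within the set followed expression level in the same direction as in the whole table. With all transcripts ranked by mean level into 4 equal bins, in the lowest bin, up to 3.71 FPKM, 8 genes of the set had a median log2 fold change of 0.42 beside 0.25 for all. In the next bins the medians were 0.13 and 0.09, beside 0.16 and 0.06. In the highest bin, from 28.7 FPKM, 28 genes had a median of 0.03 beside -0.02. The control libraries also differed. Of the 26 genes above the controls, NC replicate 1 was the control nearer to the knockdown for 20, against 2088 of 3148 in the whole table. The difference between groups was wider than both gaps between replicates for 27 of the 77 genes, or 35.1%, against 37.3% of all transcripts.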

How the data were processed

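The authors deposited 1 table of FPKM values, 1 column per library. Trimmomatic, HISAT2, featureCounts and Cufflinks are named in the submitters' processing notes without roles; genome build and annotation are not given in the sources used here, and strand-specific counting is not stated. FPKM are not counts, so no count model was used. Symbols came from a RefSeq gene table (assembly ARS-UCD2.0), matched on accession for 14295 of 14517 transcripts. No sequences or positions are printed. Results for some single genes are not reported here, and these genes remain in the counts and medians.

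The groups were compared with limma 3.58.1 (lmFit, eBayes with trend; R 4.3.3) on log2(FPKM + 1) values, over the 8970 transcripts whose mean reached 1 FPKM, all 4 libraries, no covariates, with Benjamini-Hochberg adjustment over all of them. Log2 fold changes understate changes of low genes. Precision rests on 2 libraries per group, as read counts are unknown. The fit was tested on simulated data (5 tables of 8970 transcripts, 200 changed), where 7.14% of calls were false. Tables and plots used matplotlib 3.10.9, numpy 2.4.6 and pandas 2.3.3 under Python 3.11.15.

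The genes and lists were chosen with earlier results of these data known. Named genes were, in each direction, the 8 largest differences with a mean FPKM of at least 5 and no overlap, the 3 highest levels and the smallest difference per class, any with an adjusted p under 0.05, and in each other list the 2 largest differences with a mean FPKM of at least 5. Others named (among them UBE2E1, UBE2L6, UBE2N, UBA7, USP44, USP13, UBE2D1 to UBE2D3, RNF20, RNF40, ATXN3) were chosen after their values were seen. Alternatives were a pseudocount of 0.1, other filters, scalings and variance models, the replicate number as a block, rows summed by symbol, and leaving out each library.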

Additional observations from a re-analysis of the deposited data

How the results depend on the processing

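No gene of the set was called under the 9 alternatives that kept all libraries. These alternatives called only 12 to 46 transcripts in the whole table, of 6130 to 14517 tested. The count above the controls, 26, became 16 after quantile normalization, where the share of all transcripts went from 35.1% to 20.7%. The count below, 11, became 19 with median-ratio scaling and 19 after quantile normalization, where that share went from 15.6% to 25.4% and 28.3%. The number at least 2-fold higher, 2, was 4 with a pseudocount of 0.1, 1 with a mean FPKM of at least 5 and 1 after quantile normalization, and the number with an unadjusted p under 0.05, 10, was 6 after quantile normalization. The set's median was -0.036 with median-ratio scaling and -0.016 after quantile normalization, and 1 gene of the other lists was called after quantile normalization. With the replicate number as a block, 0 genes of the set were called, and KDM5A stayed at -1.35 but lost the threshold (limma adjusted p of 0.0591), as it did with no filter and with eBayes without a trend, at -1.35 each; its adjusted p over the 9 alternatives ranged from 0.0208 to 0.0918. The labels do not say that a replicate number marks a shared batch; deviations of same-numbered libraries correlated at 0.229, and the block gave 12 calls over all transcripts against 25 without it.

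Leaving out 1 library at a time, where the lone sample of a group is assumed to vary like the other group, gave 0 to 1 genes called higher, 36 to 39 above the controls and 15 to 23 below (44.96% to 50.02% and 25.4% to 28.9% of all transcripts), 1 to 5 at least 2-fold higher, 3 to 13 with an unadjusted p under 0.05 and 0 to 2 called in the other lists. Fewer libraries make it easier not to overlap. KDM5A then lay between -1.38 and -1.32, called only without NC replicate 1, and KDM5C between -1.26 and -0.74, called only without NC replicate 1.

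Some differences changed sign. Not all of these were small, as they include UBE2D3, UBA7 and CUL2, at 0.44, 0.36 and -0.35 with all libraries. With median-ratio scaling CUL3 was at -0.077, OTUD5 at -0.043, OTULINL at -0.057, UBA1 at -0.11, UBA3 at -0.00015, UBE2S at -0.080, UBE2Z at -0.085 and USP1 at -0.0018. After quantile normalization CUL3 was at -0.016, OTUD4 at -0.054, OTULINL at -0.29, UBA1 at -0.0084, UBE2Z at -0.0049 and UCHL5 at -0.12. With a library left out the ranges that crossed 0 were -0.73 to 0.028 for CUL2, -0.037 to 0.10 for CUL3, -0.053 to 0.19 for OTUD5, -0.16 to 0.20 for OTULINL, -0.17 to 0.17 for UBA1, -0.31 to 0.082 for UBA2, -0.065 to 0.28 for UBA3, -0.047 to 0.76 for UBA7, -0.39 to 1.27 for UBE2D3, -0.11 to 0.17 for UBE2S, -0.014 to 0.065 for UBE2Z, -0.19 to 0.50 for UCHL5, -0.26 to 0.064 for USP10 and -0.081 to 0.055 for USP16. The causes were not tested. Alternatives were run for 39 genes of the set, those named by the rule with UBA7, UBE2L6, UBE2D3, USP44 and USP13, and not for the other genes named. Of 346 comparisons with all libraries kept, 332 kept direction and side of the threshold and these 14 reversed; with a library left out 135 of 156 did, 20 reversed and UCHL1 gained the threshold at 1.99. With all libraries kept, only the pseudocount and both scalings could reverse a sign. The other filters, the variance models, the block and the summed rows leave the fold change of these genes as it is. Genes whose groups did not overlap could not reverse when a library was left out. Depth limits the low genes most, and no detection limit can be given without read counts.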
